A study of Mus musculus with 16 samples.

Results

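Chromatin peak lists of vehicle-treated and inhibitor-treated cells were read at the genes Ccl1, Ccl3, Ccl4, Ccl5, Ccl9 and Xcl1, a set of 6 chemokine genes of effector T cells among 26089 RefSeq genes. The genes were chosen by name, and every peak that overlapped a gene body extended by 20 kb on each side was taken. This gave 65 peaks of the 214352 in all lists, 19 of them within 1 kb of the transcription start site (TSS) of a chosen gene, which is called its promoter here, and 46 elsewhere. The windows of Ccl3 and Ccl4 overlapped and were joined, so that the 6 genes formed 5 loci.

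CD8+ T cells from the spleens of OT1 mice, a strain with a transgenic T cell receptor that recognises an ovalbumin peptide, were stimulated for 48 h with anti-CD3 and anti-CD28 (2 μg/ml each) and IL-2 (20 ng/ml), and then expanded with IL-2 for 3 days. The cultures received 0.5 μM GSK2879552 (GSK), which inhibits the histone demethylase LSD1 irreversibly, throughout both steps, or vehicle (Veh) in its place. ChIP-seq was done for LSD1, for RNA polymerase II (Pol II) and for the histone marks H3K4me1, H3K4me2, H3K4me3 and H3K27ac, and 1 peak list for each antibody and treatment, from 1 library, was analysed here. The study says that the experiments were repeated, and lists of a repeat were not analysed here. A call means that the authors list a peak. With 1 list a group there is no spread between replicates, so no test and no p-value for a difference between treatments is given, and a region listed in 1 treatment only is a difference between those libraries.

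Chemokines are small secreted proteins that draw cells along a gradient through G protein-coupled receptors. Activated CD8+ T cells are known for releasing Ccl3, Ccl4 and Ccl5, and also Xcl1, which attracts the cross-presenting dendritic cells that carry Xcr1. Ccl1 is the ligand of Ccr8, and Ccl9 is a ligand of Ccr1 better known from myeloid cells. LSD1 is a demethylase of H3K4me1 and H3K4me2, marks of enhancers and promoter flanks. H3K4me3 sits at promoters in use, H3K27ac at enhancers and promoters that are active, and Pol II is the enzyme that transcribes these genes.

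In the mm10 build, Xcl1 lies on the minus strand at chr1:164931644-164935522. The other genes lie on chromosome 11, where Ccl1 is on the minus strand at chr11:82176666-82179812, apart from the rest. Ccl5 at chr11:83525778-83530518, Ccl9 at chr11:83572917-83578636 and Ccl3 at chr11:83647843-83649378 follow one another on the minus strand, and Ccl4 is on the plus strand at chr11:83662584-83664683. The windows were 43.1 to 56.8 kb wide.

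LSD1 was listed at all 5 loci in Veh cells, with 5 of its 7 peaks away from the promoters. The sequences around the strongest LSD1 peak of each locus in either treatment are therefore shown, as 300 bases centred on the summit, on the plus strand of GRCm38.p6. That peak is a GSK peak at Ccl3/Ccl4 and a Veh peak at the other loci. Capitals mark matches on either strand to 9 motifs searched: AP-1 (TGANTCA), NF-kB, NFAT (GGAAAAT), RUNX (TGTGGT), T-box (GGTGTGA), ETS (CCGGAAG), the E-box read by ZEB proteins (CAGGTG), GFI1 (AAATCA) and the TATA box (TATAAA). The Ccl3/Ccl4 window is chr11:83640123-83640422, the Ccl5 window chr11:83535161-83535460, the Ccl9 window chr11:83568901-83569200, the Ccl1 window chr11:82183252-82183551 and the Xcl1 window chr1:164935708-164936007.
Ccl3/Ccl4 LSD1 summit: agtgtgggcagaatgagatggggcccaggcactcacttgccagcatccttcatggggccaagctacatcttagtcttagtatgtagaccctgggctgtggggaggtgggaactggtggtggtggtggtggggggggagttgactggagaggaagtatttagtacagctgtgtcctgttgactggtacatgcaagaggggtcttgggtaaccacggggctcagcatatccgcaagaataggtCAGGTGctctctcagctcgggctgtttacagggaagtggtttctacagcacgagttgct
Ccl5 LSD1 summit: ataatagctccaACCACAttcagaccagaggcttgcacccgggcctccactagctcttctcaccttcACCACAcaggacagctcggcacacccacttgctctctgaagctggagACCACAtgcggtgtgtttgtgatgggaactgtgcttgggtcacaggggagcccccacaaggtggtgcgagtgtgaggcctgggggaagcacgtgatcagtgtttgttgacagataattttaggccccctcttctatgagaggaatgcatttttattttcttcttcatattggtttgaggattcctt
Ccl9 LSD1 summit: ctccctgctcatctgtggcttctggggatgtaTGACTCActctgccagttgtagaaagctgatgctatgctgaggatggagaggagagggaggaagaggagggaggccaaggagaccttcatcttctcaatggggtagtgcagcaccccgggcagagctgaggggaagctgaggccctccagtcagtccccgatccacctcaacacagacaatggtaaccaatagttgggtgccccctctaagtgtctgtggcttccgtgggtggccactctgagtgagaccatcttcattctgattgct
Ccl1 LSD1 summit: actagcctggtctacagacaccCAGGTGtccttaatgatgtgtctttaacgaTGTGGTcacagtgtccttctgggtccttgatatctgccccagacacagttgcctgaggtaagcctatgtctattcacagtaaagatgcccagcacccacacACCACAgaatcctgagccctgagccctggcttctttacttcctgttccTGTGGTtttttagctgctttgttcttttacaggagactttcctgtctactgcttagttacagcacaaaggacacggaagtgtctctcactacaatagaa
Xcl1 LSD1 summit: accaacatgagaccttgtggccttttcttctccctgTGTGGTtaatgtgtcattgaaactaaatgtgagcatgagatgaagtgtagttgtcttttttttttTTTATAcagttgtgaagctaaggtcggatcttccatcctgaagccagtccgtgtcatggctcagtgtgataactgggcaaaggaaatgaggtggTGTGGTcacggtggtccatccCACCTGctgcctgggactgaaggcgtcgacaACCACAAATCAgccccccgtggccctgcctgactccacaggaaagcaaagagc

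RUNX letters stood in 3 of these 5 windows, those of Ccl1, Ccl5 and Xcl1, with 9 matches in all and 3 in each. They are found in 29.6% of all Veh and 22.1% of all GSK LSD1 summit windows of this length. ZEB E-box letters stood once in each of the Ccl1, Ccl3/Ccl4 and Xcl1 windows, and stand in 23.9% of Veh and 24.1% of GSK windows. The Ccl9 window held AP-1 letters alone, which 12.1% of Veh and 8.92% of GSK windows hold. In the Xcl1 window a GFI1 match overlapped the last RUNX match by its first base, and TATA letters stood on the minus strand. GFI1 letters stand in 12.6% of Veh and 8.90% of GSK windows, and TATA letters in 9.38% and 6.89%. No NF-kB, NFAT, T-box or ETS letters were found in the 5 windows. A match is a description of the letters and not a bound site.

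Promoter sequences were looked up in a RefSeq table of the same build, where 4 of the 6 genes were matched and Ccl4 and Ccl5 were not. Ccl3 and Xcl1 are shown because H3K4me3 was listed at their promoters in GSK cells and not in Veh cells. Each sequence is the 250 bases before the TSS read along the gene, on the minus strand, at chr11:83649379-83649628 for Ccl3 and chr1:164935523-164935772 for Xcl1. Capitals mark the same motifs.
Ccl3 promoter: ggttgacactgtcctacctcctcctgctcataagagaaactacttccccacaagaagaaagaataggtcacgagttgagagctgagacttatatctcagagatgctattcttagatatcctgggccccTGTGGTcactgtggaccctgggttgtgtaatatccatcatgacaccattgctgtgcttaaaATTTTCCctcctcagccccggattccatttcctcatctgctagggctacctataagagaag
Xcl1 promoter: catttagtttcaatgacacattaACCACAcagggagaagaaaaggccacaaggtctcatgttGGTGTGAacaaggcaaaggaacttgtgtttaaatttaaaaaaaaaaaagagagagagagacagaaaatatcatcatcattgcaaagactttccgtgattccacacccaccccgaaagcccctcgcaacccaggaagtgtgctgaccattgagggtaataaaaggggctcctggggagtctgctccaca

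Both promoters held RUNX letters once, which 14.0% of all RefSeq promoters of this length hold. The Ccl3 promoter also held NFAT letters, present in 4.16% of promoters, and the Xcl1 promoter T-box letters, present in 3.33%. The Xcl1 promoter and the Xcl1 LSD1 window share 65 bases, so the RUNX match of the promoter is one of the 3 of the LSD1 window.

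The chromatin of the cells carried the marks of CD8+ T cells. H3K4me3 was listed at the promoters of all 5 genes of the CD8 T cell list (Cd8a, Cd8b1, Cd3d, Cd3e, Cd3g) in both treatments, and Pol II at 2 in Veh and 4 in GSK cells. None of the 9 genes that mark B cells, myeloid cells, CD4 T cells or NK cells had H3K4me3 or Pol II at its promoter in either treatment. The lists ran from 2751 peaks for GSK H3K27ac to 40272 for GSK H3K4me1. They hold no read numbers, so the files themselves do not show depth. The study states more reads for the Veh library of LSD1, H3K4me2 and H3K27ac, with the widest gap for H3K27ac, and for the GSK library of H3K4me1, H3K4me3 and Pol II. It does not say whether peaks were called on equal numbers of reads, and the part of depth in the differences given here was not tested.

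At the promoters, H3K4me1 was the mark most often listed, and neither treatment had H3K27ac at any of the 6 genes. H3K4me1 stood at the promoters of Ccl3, Ccl4, Ccl5 and Xcl1 in both treatments, 4 of 6 genes, beside 29.5% of all promoters in Veh and 35.8% in GSK cells (26% in both). LSD1 was listed at 2 of 6 promoters in each treatment, beside 35.4% of all promoters in Veh and 40.8% in GSK cells. It stood at Ccl4 in both treatments (30.8% of all promoters), at Xcl1 in Veh cells only (4.53%) and at Ccl3 in GSK cells only (9.96%). H3K4me2 was listed at Ccl3 and Ccl4 in Veh cells only, where 12.9% of all promoters had it in Veh cells only (38.4% in Veh and 27.4% in GSK cells). H3K4me3 was listed at 1 promoter in Veh cells, that of Ccl4, and at 3 in GSK cells, those of Ccl3, Ccl4 and Xcl1. Over all promoters, H3K4me3 was listed at 49.6% in Veh and 50.8% in GSK cells, at 49.3% in both and at 1.53% in GSK cells only. Pol II was listed at the Ccl9 promoter in Veh cells and at no promoter of the 6 in GSK cells, beside 28.4% and 24.1% of all promoters and 7.11% with Pol II in Veh cells only. H3K27ac was listed at 20.4% of all promoters in Veh and 8.55% in GSK cells. Over the 6 genes and 6 antibodies, 6 pairs of gene and antibody were listed in both treatments, 4 in Veh cells only, 3 in GSK cells only and 23 in neither. When both lists of an antibody were held to the length of the shorter one, the Veh H3K4me2 peaks at Ccl3 and Ccl4, the GSK H3K4me3 peak at Ccl3 and the GSK H3K4me1 peak at Ccl4 were no longer among the calls, while those of H3K4me3 at Ccl4 and Xcl1 were. The H3K4me3 peak at Xcl1 was near that cut, at rank 15739 where 15779 peaks were kept. At a −log10 q (adjusted over the list by the authors) of at least 5, LSD1 was left at Xcl1 in Veh and at Ccl4 in GSK cells.

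**Figure D1:**
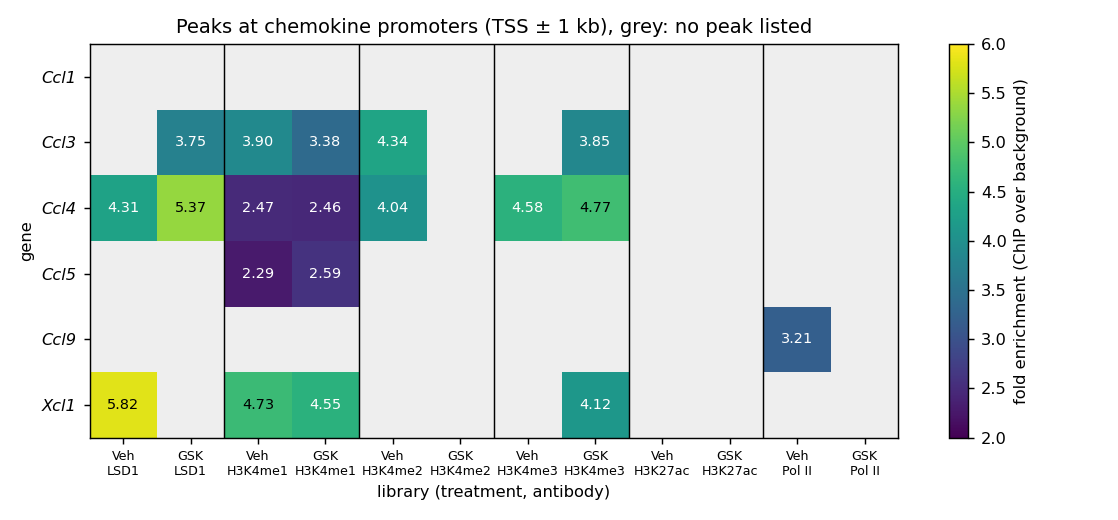
Fold enrichment of the peak at each promoter (TSS ± 1 kb) for the 6 genes (rows) in the 12 libraries (columns, 1 library each), with colour and printed number giving the fold of ChIP over background; grey means that no peak is listed. Ccl1 is empty in every column, Ccl9 has a single Pol II peak, and the H3K4me2 entries of Ccl3 and Ccl4 stand in the Veh column only, while the H3K4me3 entries of Ccl3 and Xcl1 stand in the GSK column only.

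Ccl3 and Ccl4 encode MIP-1 alpha and MIP-1 beta, which are secreted together by activated T cells. Their shared window held 28 of the 65 peaks, 12 in Veh and 16 in GSK cells, and was the only one besides that of Ccl5 with peaks of all 6 antibodies. At the Ccl4 promoter an LSD1 peak ended upstream of the TSS, with a fold of 4.31 over background in Veh and 5.37 in GSK cells, and a −log10 p (the authors' significance of the peak) of 7.78 and 9.05. Its summit in GSK cells lay 0.258 kb upstream of the TSS. H3K4me3 followed from just before the TSS into intron 1, at chr11:83662511-83663772, with a fold of 4.58 in Veh and 4.77 in GSK cells. The H3K4me3 peak ranked 13199 of 15779 by significance in the Veh list and 12964 of 16887 in the GSK list, low in both. H3K4me2 at the same place had a fold of 4.04 in Veh cells, ranked 13241 of 15219, and was not listed in GSK cells. H3K4me1 had a fold of 2.47 in Veh and 2.46 in GSK cells. The Veh H3K4me1 peak covered the TSS and the GSK peak began past it, so the pair overlapped over a short stretch only. Ccl4 was thus the only gene of the 6 with both LSD1 and H3K4me3 at its promoter in both treatments.

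At Ccl3, H3K4me1 covered the promoter from 83648273 to 83650123 with a fold of 3.90 in Veh and 3.38 in GSK cells. H3K4me2, with a fold of 4.34, was listed in Veh cells only and ranked 14663 of 15219, near the end of its list. H3K4me3, with a fold of 3.85, was listed in GSK cells only, 0.231 kb upstream of the TSS, and ranked 16728 of 16887. The LSD1 peak of GSK cells, with a fold of 3.75 at a −log10 p of 5.22, lay in intron 2, 918 bp downstream of the TSS. The nearest Veh LSD1 peak was 7662 bp away. All single-treatment entries of the Ccl3 promoter were weak peaks of their lists. Between both genes H3K4me1 was strongest 4.40 kb upstream of Ccl4, with a −log10 p of 11.4 in Veh and 14.7 in GSK cells at folds of 3.10 and 3.14. A GSK-only H3K4me1 peak 6.45 kb upstream of Ccl4 had a fold of 2.20 at a −log10 p of 5.07.

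The densest site of the Ccl3/Ccl4 locus was not a promoter but an intergenic stretch about 9 kb downstream of Ccl3, where all 6 antibodies had a peak in at least 1 treatment. LSD1 was listed there at chr11:83640094-83640514, 9.11 kb from the Ccl3 TSS, with a fold of 4.01 in Veh and 5.93 in GSK cells at a −log10 p of 7.47 and 13.0. This LSD1 peak ranked 8992 of 21252 in the Veh list and 2864 of 19919 in the GSK list. A weaker LSD1 peak 10.1 kb from the TSS, with a fold of 3.41, was listed in GSK cells only. H3K4me1 spanned chr11:83637262-83641485 as 1 peak in Veh cells and as 2 peaks in GSK cells. H3K4me2 was listed in both treatments, with a fold of 3.94 in Veh and 4.04 in GSK cells. Those H3K4me2 peaks overlapped at 1 edge and did not overlap by 50% of the shorter one. H3K27ac, with a fold of 3.41 at a −log10 p of 7.67, was listed in Veh cells only, and the nearest GSK H3K27ac peak was 88227 bp away. H3K4me3 with a fold of 3.94, ranked 16351 of 16887, and Pol II with a fold of 3.28, ranked 8253 of 15401, were listed in GSK cells only. The site therefore had H3K27ac without H3K4me3 and Pol II in the Veh lists, and H3K4me3 and Pol II without H3K27ac in the GSK lists. Neither its H3K27ac nor its H3K4me3 peak was kept with lists of equal length. The study also states fewer reads for the GSK than for the Veh H3K27ac library.

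**Figure D2:**
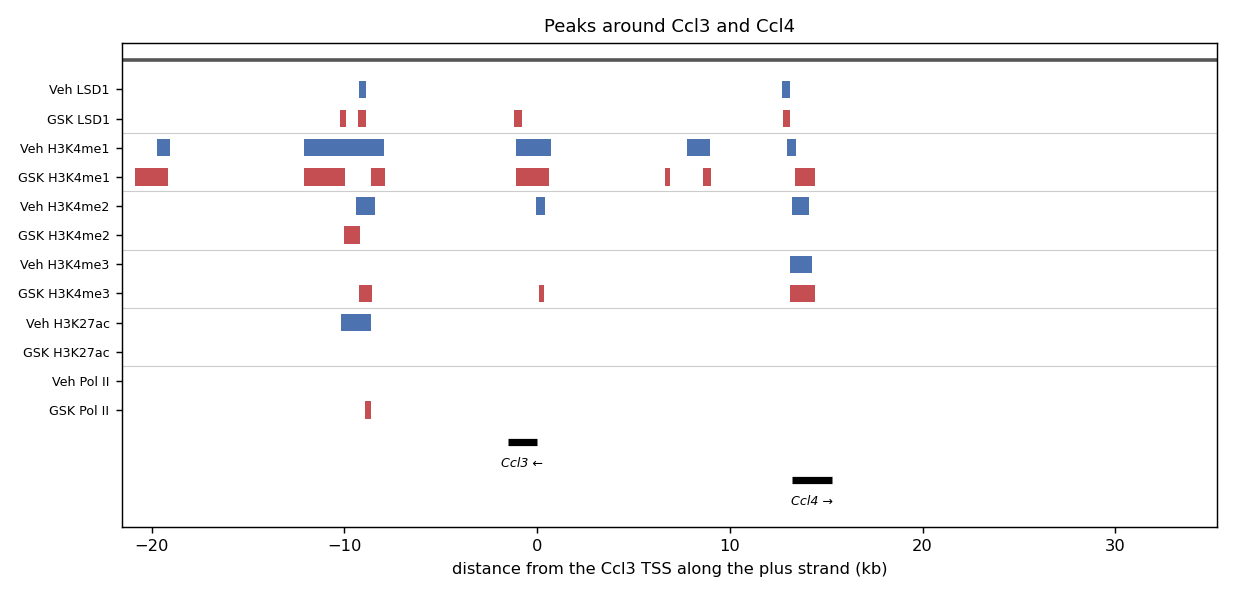
Peaks of the 12 lists in the joined window of Ccl3 and Ccl4, with 1 row per library (blue, Veh; red, GSK), against distance from the Ccl3 TSS in kb along the plus strand; black bars are genes with the direction of transcription and the grey bar at the top is the window. The peaks gather at the Ccl4 promoter, at the Ccl3 promoter and at a site about 9 kb downstream of Ccl3, where H3K27ac is present in the Veh row only and H3K4me3 and Pol II are present in the GSK rows only.

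Ccl5 encodes RANTES, a chemokine that effector and memory CD8+ T cells store and release. Its window held 18 peaks, 9 in each treatment, and only 2 of them touched the promoter. Those were H3K4me1 peaks with a fold of 2.29 in Veh and 2.59 in GSK cells at a −log10 p of 6.46 and 9.96. These folds stood at the 2.25 and 9.10 percentiles of their lists, so the Ccl5 promoter was thinly marked by fold. By significance the peaks ranked 27905 of 34387 in the Veh list and 11895 of 40272 in the GSK list. LSD1 was listed upstream instead, at a pair of sites present in both treatments. The nearer one, chr11:83535020-83535441, lay 4.79 kb upstream of the TSS with a fold of 4.99 in Veh and 5.22 in GSK cells at a −log10 p of 14.2 and 11.9, the highest Veh value of any LSD1 peak in the windows. The farther one, chr11:83550130-83550594, lay 19.8 kb upstream with folds of 5.65 and 5.63.

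Around the nearer LSD1 site of Ccl5 the marks differed between the lists. H3K4me1 (5.49 kb upstream, fold 2.51), H3K4me2 (5.73 kb, fold 4.22) and H3K27ac (5.96 kb, fold 3.36) were listed in Veh cells only. H3K4me3 (4.33 kb, fold 3.40) was listed in GSK cells only and ranked 16701 of 16887. A Pol II peak 6.53 kb upstream, with a fold of 2.91 at a −log10 p of 3.65, was listed in Veh cells only. H3K4me1 peaks listed in GSK cells only lay 3.15 kb upstream (fold 2.31), 10.5 kb upstream (fold 2.24) and 12.8 kb downstream in intron 6 of Heatr9 (fold 3.79). The nearest GSK peak to the Veh H3K27ac peak was 13792 bp away, and it belonged to the farther site.

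At the farther LSD1 site, H3K27ac and H3K4me2 were listed in both treatments. They began just past the 20 kb limit, in the gap between the Ccl5 and Ccl9 windows, and are not among the 65 peaks. H3K27ac had a fold of 4.36 in Veh and 4.81 in GSK cells with a −log10 p of 10.5 and 7.24, the Veh peak starting 83 bp past the window. H3K4me2 had a fold of 4.77 in Veh and 4.62 in GSK cells. H3K4me1 was listed there in both treatments, with a fold of 2.54 in Veh and 2.98 in GSK cells at a −log10 p of 8.26 and 13.8. Of the H3K27ac peaks around the 6 genes, this was the only pair listed in both treatments up to 50 kb from the gene bodies.

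Ccl9 had no histone mark at its promoter in either treatment. A Pol II peak in exon 1, chr11:83578287-83578487, had a fold of 3.21 at a −log10 p of 3.95 in Veh cells and was not listed in GSK cells. It was a weak peak, with a −log10 q of only 1.08, and ranked 12842 of 15638. The Ccl9 window held 10 peaks, 6 in Veh and 4 in GSK cells. Its LSD1 site, chr11:83568876-83569717, lay 9.59 kb downstream of the TSS, with a fold of 5.82 at a −log10 p of 11.3 in Veh cells. In GSK cells the fold there was 3.65 and the −log10 p 4.63. The rank went from 3975 of 21252 in the Veh list to 16247 of 19919 in the GSK list. H3K4me1 at this site was close between treatments, with folds of 3.70 and 3.76, and H3K4me2, with a fold of 4.94, was listed in Veh cells only. The Ccl9 window also reached the promoter of Ccl6, a neighbouring chemokine gene, where H3K4me1 had a fold of 5.10 in Veh and 5.21 in GSK cells.

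**Figure D3:**
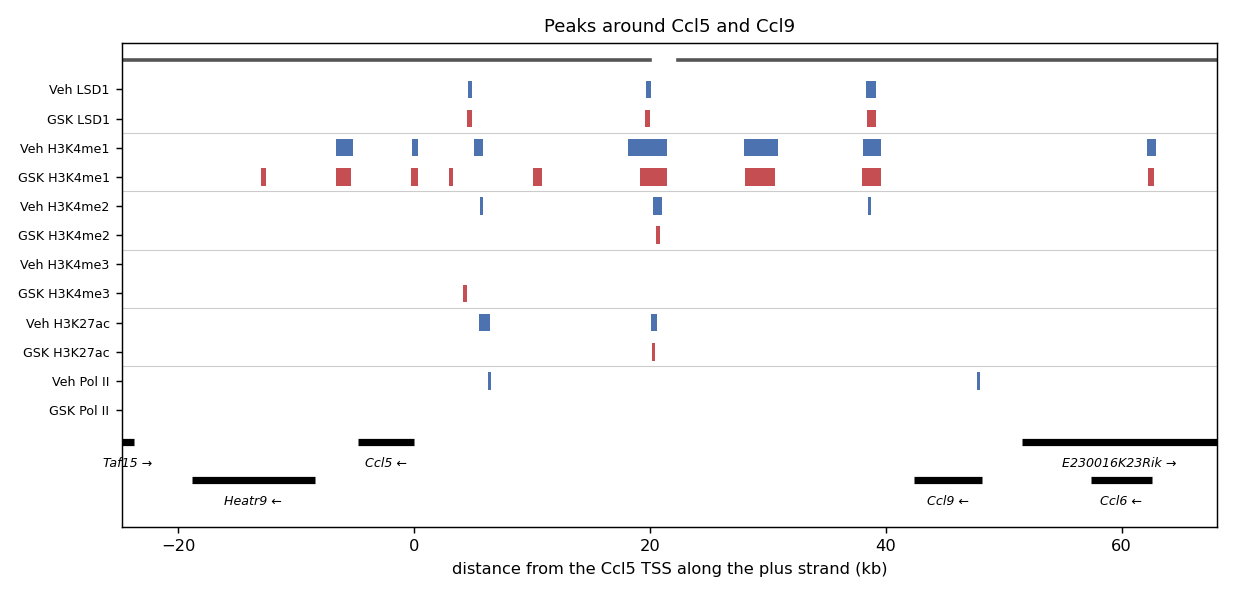
Peaks of the 12 lists across the windows of Ccl5 and Ccl9 (grey bars at the top, with the gap between them), against distance from the Ccl5 TSS in kb along the plus strand; rows are libraries (blue, Veh; red, GSK) and black bars are genes with their direction. Both genes point left, so upstream is to the right; LSD1 stands at 3 sites in both treatments, and near the Ccl5 TSS the H3K4me2, H3K27ac and Pol II peaks are in Veh rows only.

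Xcl1 and Ccl1 held few peaks. The Xcl1 window held 4, all at the promoter. LSD1, 0.336 kb upstream of the TSS, had a fold of 5.82 at a −log10 p of 10.1 in Veh cells, ranked 4958 of 21252, and was not listed in GSK cells, where the nearest LSD1 peak was 30021 bp away. Of the 7 Veh LSD1 peaks in the windows, only this one and that of Ccl1 had no GSK partner. H3K4me1 covered the same place with a fold of 4.73 in Veh and 4.55 in GSK cells. H3K4me3, with a fold of 4.12 at a −log10 p of 7.26, was listed in GSK cells only and ranked 15739 of 16887, the best rank of the 4 H3K4me3 peaks of the windows listed in GSK cells only. No H3K4me2, H3K27ac or Pol II was listed at Xcl1 in either treatment.

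Ccl1 had no promoter peak of any antibody. Its 5 peaks lay upstream. LSD1, at chr11:82183017-82183733 and 3.59 kb from the TSS, had a fold of 4.26 at a −log10 p of 6.29 in Veh cells and was not listed in GSK cells, where the nearest LSD1 peak was 562420 bp away. H3K4me1 overlapped it in both treatments, with a fold of 3.40 in Veh and 3.87 in GSK cells at a −log10 p of 10.8 and 13.4. A further H3K4me1 region 15.7 kb upstream had folds of 4.65 and 3.84.

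**Figure D4:**
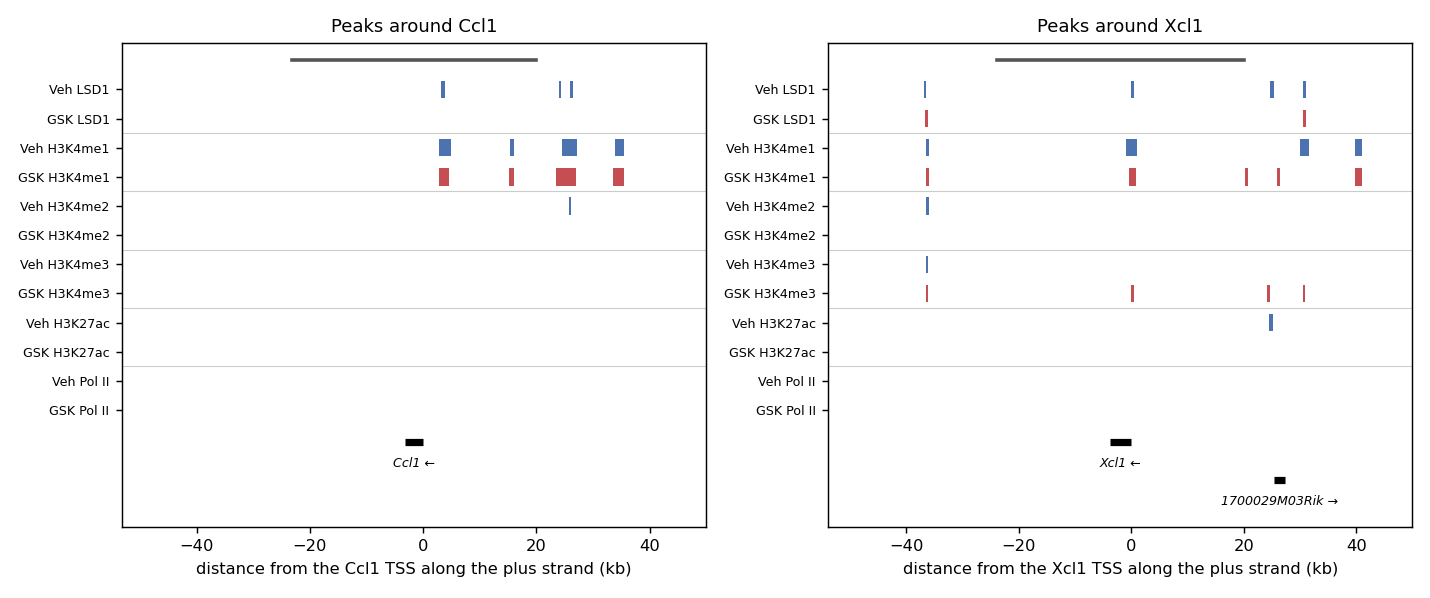
Peaks of the 12 lists around Ccl1 (left) and Xcl1 (right), drawn to 50 kb past each gene body, against distance from the gene's TSS in kb along the plus strand; rows are libraries (blue, Veh; red, GSK), black bars are genes and the grey bar at the top is the window of 20 kb. Both genes point left; the LSD1 peak nearest each TSS is in the Veh row only, and the H3K4me1 peak below it is in both rows.

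Where Veh and GSK peaks of one antibody overlapped by 1 bp or more they were joined, which gave 43 regions, 13 at promoters and 30 elsewhere. For LSD1, 5 of 9 regions were listed in both treatments, 55.6% (Wilson 95% interval 26.7 to 81.1), beside 38.8% of all LSD1 regions. The other 4 were split evenly between Veh only and GSK only, which held 32.7% and 28.5% of all LSD1 regions. For H3K4me1, 14 of 19 were shared, 73.7% (51.2 to 88.2), beside 67.9% genome-wide, with 1 in Veh cells only (9.47% genome-wide) and 4 in GSK cells only (22.6%). For H3K4me2, 1 of 5 was shared, 20.0% (3.62 to 62.4), and 4 were in Veh cells only, beside 51.8% shared and 41.9% Veh only genome-wide. For H3K4me3, 1 of 5 was shared and 4 were in GSK cells only, 80.0% (37.6 to 96.4), beside 88.8% shared and 8.74% GSK only genome-wide. Both H3K27ac regions were in Veh cells only, as were 63.6% of all H3K27ac regions, while 34.6% were shared. None of the 3 Pol II regions was shared, with 2 in Veh and 1 in GSK cells only, beside 24.2% shared, 38.3% Veh only and 37.4% GSK only genome-wide. The intervals cover counting error only and take the regions as independent, which neighbours at 1 locus need not be. The 4 GSK-only H3K4me3 regions ranked from 15739 to 16728 of 16887 and so were among the weakest of their list. With lists of equal length only the Xcl1 one was left of these 4, beside the shared Ccl4 region, and those at the Ccl3 promoter, downstream of Ccl3 and upstream of Ccl5 were lost. The Xcl1 peak was kept narrowly, at rank 15739 where the cut kept 15779 peaks. The same setting left 2 of the 5 Veh H3K4me2 peaks and the GSK peak, none of them overlapping.

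**Figure D5:**
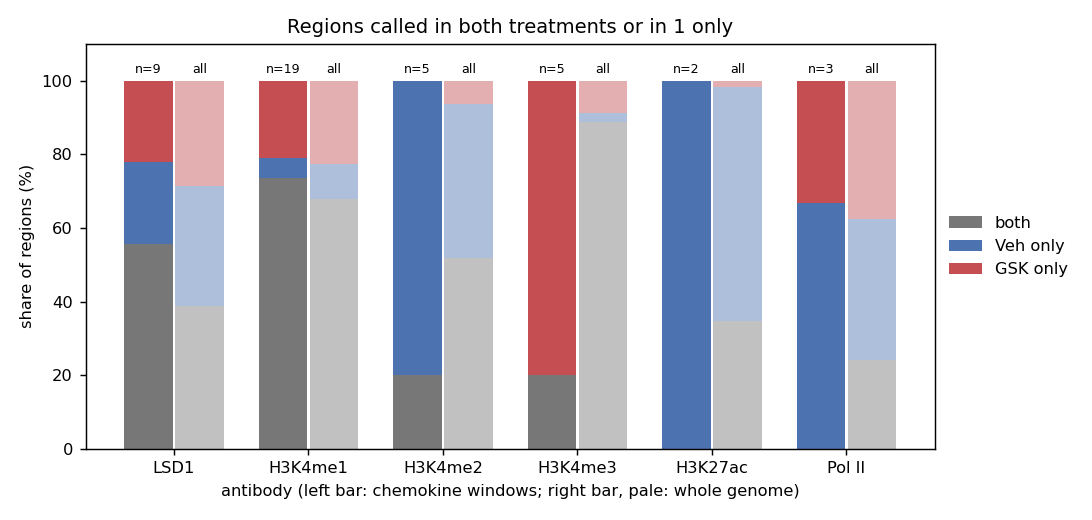
Share of regions (percent) listed in both treatments (grey), in Veh only (blue) or in GSK only (red), for each antibody; the left bar of a pair holds the regions in the chemokine windows, with their number above it, and the pale right bar holds all regions of the genome. H3K4me1 and LSD1 bars are mostly or largely grey, H3K4me2 and H3K27ac are blue in 4 of 5 and 2 of 2 regions, and H3K4me3 is red in 4 of 5.

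The 5 shared LSD1 regions had a GSK to Veh ratio of fold from 0.626 (Ccl9) to 1.48 (Ccl3, 9.11 kb downstream), with a median of 1.05. Over all 11438 shared LSD1 regions the median was 1.08, and the central range (5th to 95th percentile) 0.668 to 1.64, so the Ccl9 site lay below that range. The 14 shared H3K4me1 regions had ratios from 0.825 to 1.17 with a median of 1.00, beside 0.961 over all 29970. The LSD1 peaks of the windows stood above the middle of their lists, with a median fold of 4.99 in Veh and 5.22 in GSK cells beside 4.20 and 4.47 for all LSD1 peaks. Histone peaks stood below it: the median percentile of fold was 18.1 for Veh and 19.1 for GSK H3K4me1, 30.6 for Veh H3K4me2 and 11.5 for GSK H3K4me3.

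Regions listed in 1 treatment only were read by their distance to LSD1, beside the shares over all such regions. Each of the 4 Veh-only H3K4me2 regions and each of the 4 GSK-only H3K4me3 regions was within 1 kb of an LSD1 region, as were 67.9% and 59.6% of all such regions. Both Veh-only H3K27ac regions were within 1 kb of LSD1, beside 79.0% of all. None of the 4 GSK-only H3K4me1 regions was, beside 35.3% of all, and the Veh-only H3K4me1 region was, beside 31.3%. For Pol II, neither of the 2 Veh-only regions was, beside 27.2% of all, and the 1 GSK-only region was, beside 13.8%. Read from LSD1, all 9 LSD1 regions had H3K4me1 within 1 kb in at least 1 treatment, 8 of them in both, beside 65.1% and 51.9% of all 29505 LSD1 regions. H3K4me2 was within 1 kb of 7 (44.7% of all), in Veh cells only at 4 of them (16% of all). H3K4me3 was within 1 kb of 6 (49.7% of all), in GSK cells only at 5 of them (3.27% of all), and a pair of those regions downstream of Ccl3 shared the same H3K4me3 peak. H3K27ac was within 1 kb of 4 (23.3% of all), at 3 of them in Veh cells only (14.0% of all), while 5 had none, beside 76.7% of all. Pol II was within 1 kb of 2 (30.4% of all), in GSK cells only (3.53% of all), while 7 had none, beside 69.6% of all. The same pair of LSD1 regions downstream of Ccl3 shared 1 Veh-only H3K27ac peak. It also shared the 1 Pol II peak behind both Pol II counts.

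The H3K27ac lists held 7410 Veh and 2751 GSK peaks. The folds of the Veh-only H3K27ac peaks at Ccl5 and Ccl3 were 3.36 and 3.41, and the GSK list held only 57 and 64 peaks at or below these folds, against 1290 and 1478 in the Veh list. The −log10 p of listed H3K27ac peaks began at 5.94 (Veh) and 6.47 (GSK). With both lists cut to the length of the shorter one by significance, neither Veh H3K27ac peak was kept. Peaks at or below these folds were seldom listed anywhere in the GSK library. Why the GSK list lacks these peaks was not tested. For H3K4me3 the lists were alike in length, and peaks at or below the fold of the GSK-only Xcl1 peak numbered 2498 in the GSK and 2432 in the Veh list.

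The number of peaks in a window can be set beside the windows of all 26089 genes, of which 64.2% held a Veh and 65.3% a GSK LSD1 peak. For H3K4me1, where the median of all genes was 2 peaks in either treatment, the Ccl3 window held 5 in Veh and 7 in GSK cells and the Ccl5 window 4 and 6. The Ccl4 window held 3 and 4, and those of Ccl9, Ccl1 and Xcl1 held 3, 2 and 1 in each treatment. H3K4me3 was listed in 64.5% of all windows in Veh cells, and among the 6 genes in those of Ccl3 and Ccl4 only, which hold the same Ccl4 peak. In GSK cells H3K4me3 was listed in the windows of Ccl3, Ccl4, Ccl5 and Xcl1, beside 65.8% of all windows.

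Other genes of the pathway were read the same way. Among 28 other chemokine ligand genes, H3K4me1 was listed at the promoters of 6 in Veh and 7 in GSK cells, beside 29.5% and 35.8% of all promoters. H3K4me2 was listed at 4 and 2 (38.4% and 27.4% of all promoters) and H3K4me3 at 2 and 4 (49.6% and 50.8%). LSD1 was listed at Ccl25 alone in both treatments (30.8% of all promoters). H3K27ac and Pol II were listed at Ccl25 alone, in Veh cells only (12.1% and 7.11% of all promoters). The ligands with H3K4me3 in both were Ccl25 and Cxcl16, and Cxcl10 and Cxcl12 had it in GSK cells only (1.53% of all promoters). The Ccl25 H3K4me3 peak had a −log10 p of 84.3 in Veh and 85.8 in GSK cells, far above the 10.3 and 12.9 of Ccl4. At 4 receptor genes of the family (Ccr1, Ccr3, Ccr8, Xcr1), no promoter peak of H3K4me2, H3K4me3, H3K27ac, LSD1 or Pol II was listed in either treatment. Over all promoters, LSD1 was listed at 35.4% in Veh and 40.8% in GSK cells, H3K27ac at 20.4% and 8.55%, and Pol II at 28.4% and 24.1%. Ccr1 had H3K4me1 in both treatments (26% of all promoters), Ccr3 in GSK cells only (9.82%), and Ccr8 and Xcr1 had no promoter peak. With 4 genes, the absence of a mark says little beside these shares.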

How the data were processed

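ChIP-seq was done in 16 samples, 12 ChIP libraries (6 antibodies, Veh and GSK, 1 library each) and 4 inputs, which carry no peak list and were not analysed here. Before deposit, per the study's methods, reads were mapped uniquely to mm10 with Bowtie2, PCR duplicates were removed with Samtools, and peaks were called per library with MACS2 at a p cutoff of 0.001, with input as control. Peaks of LSD1 and Pol II are narrow and have summits, those of the histone marks are broad. The LSD1 and Pol II lists begin at a −log10 p of 3.00 to 3.01. The histone lists begin at a −log10 q of 3.01 to 3.03, so a call is not equally strict across antibodies. The values deposited per peak are a fold enrichment (the ratio of ChIP to local background), a −log10 p and a −log10 q. The deposited score is 10 times −log10 p (narrow) or −log10 q (broad), cut to a whole number, and was not used. The lists hold no read numbers, so no precision could be computed from depth. Of the read numbers that the study states, only which library had more was used.

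Promoters were 1 kb on each side of the TSSs of curated RefSeq transcripts (GRCm38.p6) on the autosomes and X, 31554 pairs of gene and TSS of 26089 genes. Gene bodies came from the same transcripts. Where a region or promoter held several peaks, the most significant was quoted. Distances run from the TSS to the summit for LSD1 and Pol II and to the middle of the peak for histone marks, using the treatment with the more significant peak. Percentiles and ranks are within a list. Scripts ran in Python 3.11.15 with pandas 2.3.3 and statsmodels 0.14.6 and were tested on simulated peaks. Alternatives were a promoter of 2.5 kb, windows of 10 and 50 kb, peaks with a −log10 q of at least 5, lists of equal length, regions joined within 1 kb or overlapping by 50% of the shorter peak, and GENCODE M21 TSSs. Named were all 6 genes, every LSD1, H3K27ac and Pol II region, and per locus the most significant region and all single-treatment regions of the other marks. The genes and lists were chosen with earlier results of these data known, and the comparisons of fold in shared regions and of distance to LSD1 were added after values were seen. A planned gene of a comparison list is not reported here.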

Additional observations from a re-analysis of the deposited data

How the results depend on the processing

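Of 104 comparisons of 24 results with an alternative, 94 kept their value within 1.5 times or within the counting interval. Some of these could not have moved. A count of 0 cannot rise under a stricter cut or a shorter list, and 0 against 0 counted as kept. Lists of equal length also leave the shorter list of an antibody unchanged. The intervals of the shares are wide because few regions or peaks stand behind them, so a kept share does not show that it is stable. With a −log10 q of at least 5, the shared part of H3K4me3 regions went from 20.0% to 50.0% and counted as kept. That of LSD1 regions went from 55.6% to 33.3% and counted as kept too. With a −log10 q of at least 5, the number of the 6 promoters with a peak fell to 1 for Veh LSD1, 1 for GSK LSD1, 2 for Veh H3K4me1, 0 for Veh H3K4me2 and 0 for Veh Pol II, because fewer peaks remained. It also fell from 4 to 3 for GSK H3K4me1 and from 3 to 2 for GSK H3K4me3, which counted as kept. Xcl1 kept LSD1 in Veh and Ccl4 in GSK cells, and Ccl4 and Xcl1 kept H3K4me3 in GSK cells. The H3K4me3 peak of Xcl1 was kept narrowly, with a −log10 q of 5.01. With lists of equal length, Veh H3K4me2 was listed at 0 of the 6 promoters, H3K4me3 of GSK cells was lost at Ccl3 and 2 sites away from promoters, H3K4me1 of GSK cells was lost at Ccl4, and both Veh H3K27ac peaks were lost. The share of H3K4me2 regions in both treatments was 0% when the overlap had to cover 50% of the shorter peak, 0% with a −log10 q of at least 5 and 0% with lists of equal length, and the GSK share of H3K4me2 peaks was 0% with a −log10 q of at least 5. Wider promoters, windows of 10 or 50 kb, joining within 1 kb and GENCODE TSSs moved no result beyond the limits above. Within those limits, windows of 50 kb took the shared H3K27ac regions from 0% of 2 to 25.0% of 4. The GSK share of H3K27ac peaks went from 0% to 20.0%, and the shared LSD1 regions from 55.6% of 9 to 43.8% of 16. In 4 cases no peak or region was left to give a value. No paired analysis was possible because each antibody and treatment has 1 library and the numbered inputs carry no list. Depth, which the lists do not hold, limits any reading of a missing peak as absence.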

Other observations

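Beyond the 20 kb windows, up to 50 kb from the gene bodies, further peaks lay near Xcl1 and Ccl1. A site 36.4 kb downstream of the Xcl1 TSS had H3K4me3 with a fold of 6.26 in Veh and 7.89 in GSK cells, and LSD1 with a fold of 3.81 in Veh and 5.87 in GSK cells. Upstream of Xcl1, near the TSS of 1700029M03Rik, H3K4me3 with a fold of 5.18 was listed in GSK cells only, and H3K27ac (3.85) and LSD1 (3.63) in Veh cells only. An LSD1 region 30.7 kb upstream of Xcl1 was listed in both treatments, with a fold of 3.59 in Veh and 5.94 in GSK cells. Upstream of Ccl1, Veh-only LSD1 peaks stood 24.1 and 26.0 kb from the TSS (folds 4.90 and 3.82), with H3K4me1 in both treatments over the latter and a Veh-only H3K4me2 peak beside it (fold 5.26). In intron 5 of E230016K23Rik, 30.8 kb from the Ccl3 TSS, the H3K4me1 fold was 6.77 (Veh, percentile 99.5 of its list) and 6.06 (GSK, percentile 98.2).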
